A study of Mus musculus with 18 samples.

Results

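The embryos compared here belong to an allelic series of Tbx1 and carry exactly 1 copy of the Neo2 allele each, and they differ in the allele opposite it. They were taken by their genotype labels alone, and they are 6 of the 18 arrays of the series, with 1 whole mouse embryo of embryonic day 9.5 per array. The partner allele is wild type in 2 embryos (Neo2/+), the Neo allele in 2 (Neo2/Neo) and the null allele in 2 (Neo2/-). The comparison sets the 4 embryos without a wild-type allele against the 2 with one, so the Neo2 allele is shared by all 6. The other 12 embryos are 2 each of WT, Neo2/Neo2, Neo/+, Neo/Neo, +/- and -/-. All 18 share a mixed background of 129SvEv and C57Bl/6, and the labels used here name no litter, so a litter and a genotype cannot be told apart.

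Tbx1 belongs to the T-box factors and is made in the pharyngeal endoderm, the mesoderm of the pharyngeal arches, the second heart field and the otic vesicle, and it is a main gene of the DiGeorge (22q11.2 deletion) syndrome. Neo and Neo2 are alleles that leave part of the gene's activity, and the - allele is a null. At this stage the embryo is building its arches and outflow tract, making its earliest neurons, and carrying primitive red cells that came from the yolk sac. Whole embryos were homogenised, so pharyngeal cells are a small part of each RNA sample. In such samples, fewer cells of a type and less RNA per cell cannot be told apart.

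Levels are log2 probe set signals, and a difference is a difference of log2 means, so a difference of 1 is 2-fold. Array medians ran from 5.73 to 5.94, and pairwise correlations among the 6 arrays ran from 0.9936 to 0.997. In each of the 3 Neo2 genotypes replicate 1 was female and replicate 2 male, so the comparison is balanced for sex. Some arrays stood apart. Outside the 6, +/- replicate 1 and -/- replicate 1 had the lowest median correlations with the other arrays, 0.975 and 0.985, and they enter the comparison only through the pooled estimate of the spread. Within the 6, Neo2/- replicate 2 lay alone at 39.4 on the first principal component (29.4% of the variance), with the other 5 between -14.3 and -4.5. The second component (29.2%) put Neo2/+ at 23.2 and 22.4, Neo2/Neo at -19.8 and -21.1, and Neo2/- between them at 0.6 and -5.4. Genes of the whole embryo were present at high signal on all 6 arrays: the embryonic globin gene Hbb-y read 14.23 to 14.43, the cardiac actin gene Actc1 12.11 to 12.32, and the neuronal tubulin gene Tubb3 9.06 to 10.22.

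A Neo or null partner in place of the wild-type allele was visible in the Tbx1 signal itself. The Tbx1 probe set read 6.59 and 6.50 in the Neo2/+ embryos, 5.65 and 5.67 in the Neo2/Neo embryos, and 5.61 and 5.81 in the Neo2/- embryos. Both embryos with a wild-type allele lay above all 4 without one, in the female and in the male embryos alike. The means were 6.54 ± 0.07 (SD, n = 2) and 5.69 ± 0.08 (SD, n = 4), a difference of -0.86 (SE 0.12), or 1.81-fold. The null embryos (-/-) still read 4.98 and 5.16 at this probe set, so this is a fold of signal that may include background. Tbx1 had the smallest p of all 18193 genes. It missed the threshold in the fit of all 18 arrays (limma, adjusted p = 0.104 over 45037 probe sets) and passed it without the 2 arrays that stand apart outside the 6 (adjusted p = 0.008). Without 1 of the 6 arrays compared, its adjusted p (limma) rose to between 0.178 and 0.866, the last without Neo2/+ replicate 2. The exact permutation test, two-sided over the 15 ways to split 6 arrays into 4 and 2, gave p = 0.0667, which is the smallest it can give.

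The Tbx1 signal with the Neo partner and with the null partner differed by less than the error. Neo2/Neo differed from Neo2/+ by -0.88 (SE 0.14) and Neo2/- by -0.83 (SE 0.14), and both use the same Neo2/+ embryos. The direct difference of Neo2/- minus Neo2/Neo was 0.05 (SE 0.14), smaller than its error. In the lines without a Neo2 allele, which share no embryo with this comparison, Tbx1 fell by 1.24 (SE 0.10) in Neo/Neo and -/- against Neo/+ and +/- (adjusted p = 0.000735). It was 1 of 2 probe sets called lower there, 0.00444% of those tested. The fall was smaller in the Neo2 carriers than in those lines by 0.38 (SE 0.16). In limma this difference had an unadjusted p of 0.0298 and an adjusted p of 0.947, past the threshold only before adjustment. WT embryos, which hold 2 wild-type alleles, had a mean Tbx1 signal of 6.59 against 6.54 in Neo2/+, a difference that was not tested. Neo2/Neo2 embryos also lack a wild-type allele, yet they read 6.62 and 6.62, so the lower signal was not shared by every genotype without one.

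**Figure D1:**
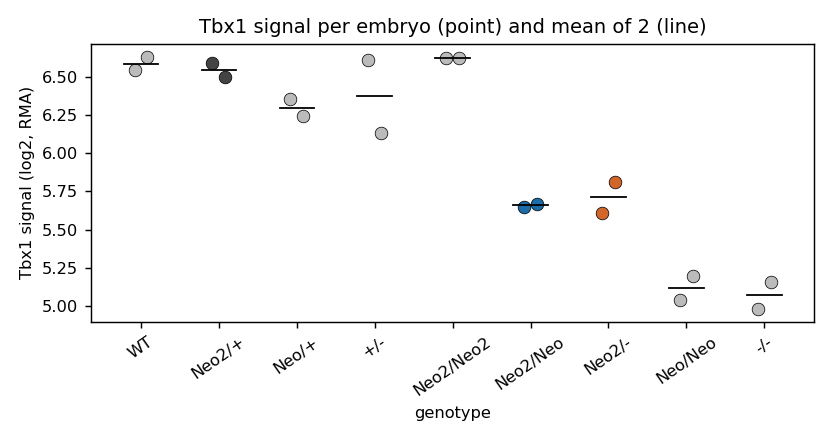
Tbx1 signal (log2, vertical axis) of each of the 18 embryos by genotype (horizontal axis), with a line at the mean of 2. The coloured embryos carry 1 Neo2 allele: Neo2/+ (dark) at 6.50 and 6.59, Neo2/Neo (blue) and Neo2/- (orange) between 5.61 and 5.81.

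Beyond Tbx1, few transcripts separated the 2 sides past the threshold. With all 18 arrays, 1 of 45037 probe sets was called, lower without a wild-type allele (0.00222% of those tested), and none was higher. At an unadjusted p under 0.05, limma gave 1166 probe sets higher (2.59%) and 1202 lower (2.67%). The called one is a dim probe set of Smo, the gene of the hedgehog signal transducer Smoothened. It read 4.74 and 4.80 in Neo2/+, 3.60 and 3.84 in Neo2/Neo, and 3.97 and 3.84 in Neo2/-, a difference of -0.96 (SE 0.09, adjusted p = 0.00604). Only the Neo2/+ embryos were high there: WT averaged 4.12 and the other 7 genotypes 3.55 to 3.92. A brighter Smo probe set, at a mean of 9.43 over the 18 arrays, differed by -0.05 (SE 0.45), so these 2 probe sets of the gene disagree.

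Without +/- replicate 1 and -/- replicate 1, 15 probe sets were called, 7 higher (0.0155%) and 8 lower (0.0178%). Tbx1 and the dim Smo probe set were among them. Higher were Hemgn, a nuclear regulator of blood cells (8.21 and 8.07 in Neo2/+, 9.81 and 9.78 in Neo2/Neo, 9.07 and 9.20 in Neo2/-), and Slc4a1, the anion exchanger of the red cell membrane. Alad, the second enzyme of haem synthesis, was called too, as was Lox, which crosslinks collagen and elastin. Hemgn rose by 1.32 (SE 0.16), Slc4a1 by 1.19 (SE 0.15), Alad by 0.89 (SE 0.12) and Lox by 0.75 (SE 0.10) in this fit, with adjusted p-values from 0.0338 to 0.0416. The remaining 9 were dimmer probe sets of Pdzk1ip1, Vcam1, Vezt, Zkscan1 and Nav1, 1 probe set that matches several genes, and 3 without a gene name. In this fit, 3 of the 4 genes called higher at their brightest probe set act in blood cells or haem synthesis. The other higher calls were the probe sets of Pdzk1ip1 and Vcam1 and the one that matches several genes. With all arrays none was called higher. The share of blood and haem genes among all genes was not counted, so these calls alone show no enrichment.

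The genes with the smallest p in the fit of all 18 arrays are described by value, since none of the 24 passed the threshold there (adjusted p from 0.155 to 0.561). Among those higher without a wild-type allele, Sfxn3, a mitochondrial serine transporter, read 5.93 and 5.62 in Neo2/+, 6.61 and 6.58 in Neo2/Neo, and 6.45 and 6.23 in Neo2/-. Fn3krp, a kinase that acts on glycated proteins, read 4.08 and 3.65, then 4.94 and 5.57, then 4.81 and 4.77 in the same order. Lox read 5.44 and 5.58, 6.28 and 6.56, and 6.12 and 6.08. In all 3 genes the 4 embryos without a wild-type allele lay above both Neo2/+ embryos, with Neo2/Neo higher than Neo2/-. The differences were 0.69 (SE 0.10) for Sfxn3, 1.16 (SE 0.21) for Fn3krp and 0.75 (SE 0.15) for Lox. The 2 other Lox probe sets gave 0.74 and, at the dimmest, 0.10.

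Kcnq5, a voltage-gated potassium channel, and Aqp3, a water and glycerol channel, were high with either partner. Kcnq5 read 4.47 and 4.10 in Neo2/+, 5.54 and 5.49 in Neo2/Neo, and 5.41 and 5.99 in Neo2/-, a difference of 1.32 (SE 0.30). Aqp3 read 6.00 and 5.86, 6.88 and 6.66, and 6.75 and 7.05 in the same order, a difference of 0.90 (SE 0.20), and its 3 dimmer probe sets gave 0.66, 0.87 and 0.13. Of its 2 dimmer probe sets, Kcnq5 had a smaller difference in the same direction at 1 (0.37) and none at the dimmest (-0.02). Otp, a homeobox factor of hypothalamic neurons, Islr, a surface protein of mesenchymal cells, and Agtr2, a receptor of angiotensin II, had the larger difference with the Neo partner. Otp differed from Neo2/+ by 0.84 in Neo2/Neo and 0.24 in Neo2/-, Islr by 0.79 and 0.28, and Agtr2 by 0.98 and 0.35. A dimmer Otp probe set gave 0.24 and 0.18. The other 4 higher genes were Gm38983 (0.93), C1qtnf4 (0.71), Pnmal2 (0.62) and Trim65 (0.37). The dimmer probe set of Pnmal2 gave 0.39, and that of C1qtnf4 gave 0.02 and did not share the difference.

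The genes lower without a wild-type allele were led by Slc1a5, the ASCT2 transporter of glutamine. Slc1a5 read 7.89 and 7.90 in Neo2/+, 6.00 and 5.73 in Neo2/Neo, and 7.24 and 5.79 in Neo2/-, a difference of -1.71 (SE 0.35). Neo2/- replicate 1 lay between the 2 sides, and a dimmer Slc1a5 probe set gave -0.65. A pair of genes of replication-dependent histone H3 stood on the same side. H3c4 read 7.21 and 7.19 in Neo2/+, 4.44 and 5.14 in Neo2/Neo, and 5.09 and 5.48 in Neo2/-, a difference of -2.16 (SE 0.49). H3c7 differed by -1.02 (SE 0.22). Histone H3 genes are near-identical copies, so their probe sets may share signal, and only 9 of 64 listed replication histone genes had a named probe set here. Of those 9, 2 were lower at an unadjusted p under 0.05 and 6 had a difference above 0.

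Airn, the imprinted antisense transcript at Igf2r, read 7.89 and 8.18 in Neo2/+, 7.38 and 7.57 in Neo2/Neo, and 7.68 and 7.62 in Neo2/-, a difference of -0.47 (SE 0.10). Its 4 other probe sets gave -0.55, -0.44, -0.05 and -0.01. Ccnt1, the cyclin of the elongation factor P-TEFb, differed by -0.31 (SE 0.08), and its second probe set by -0.09. Snapc5, a subunit of the complex that starts small nuclear RNA genes, differed by -0.53 (SE 0.12). Palm2 (-0.74), Smpdl3b (-0.54), Nat1 (-0.42), Gm9946 (-0.41), Gm5914 (-0.40) and Gm5082 (-0.32) complete the 12. The dimmer Palm2 probe set gave -0.09.

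**Figure D2:**
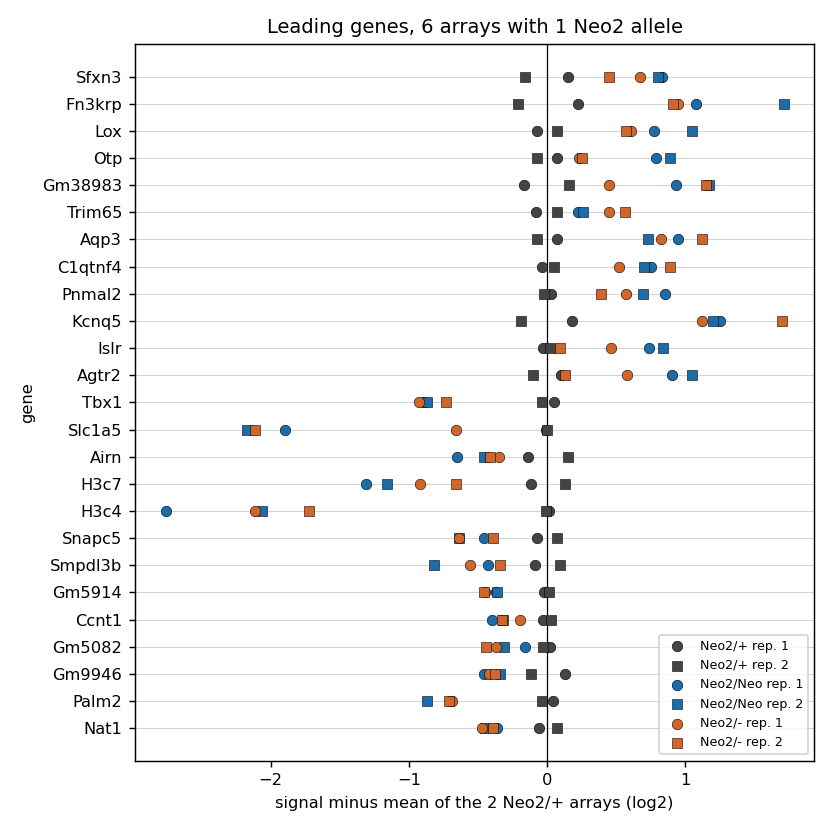
Signal of Tbx1 and 24 leading genes (vertical axis) on each of the 6 arrays, minus the mean of the 2 Neo2/+ arrays (log2, horizontal axis). Circles are replicate 1 (female) and squares replicate 2 (male). The spread between Neo2/Neo (blue) and Neo2/- (orange) is small for Tbx1 and wide for Slc1a5, where Neo2/- replicate 1 lay at 7.24 against 5.73 to 6.00 for the other 3 without a wild-type allele.

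These 24 genes were then read in the other embryos, whose levels do not enter the differences but which share the estimate of the spread behind the p-values that ranked the genes. In the lines without Neo2, 14 of 24 differed in the same direction (58.3%), against 54.0% of all 18193 genes. The mean of the WT embryos was nearer to the 4 embryos without a wild-type allele for 11 of 24, against 53.3% of all genes. Both shares lie near those of all genes. For Fn3krp the WT mean of 4.0 was with Neo2/+. In the lines without Neo2, Fn3krp was low in +/- and high in Neo/Neo, but also low in -/- (4.14) and high in Neo/+. Slc1a5 averaged 5.91 in Neo/+ and 7.54 in -/-, the reverse of the Neo2 carriers, with +/- high and Neo/Neo low. Neither gene followed the wild-type allele in all of these lines. There they went with the Neo allele, as Neo/+ and Neo/Neo averaged 5.2 and 5.63 for Fn3krp and 5.91 and 6.11 for Slc1a5. Neo2/-, without a Neo allele, averaged 4.79 and 6.51 for the same genes. For Kcnq5 the WT mean of 6.06 and for H3c4 that of 5.61 were with the Neo2 carriers that lack a wild-type allele. For these genes the Neo2/+ embryos thus differed from WT as well as from the other Neo2 carriers. H3c4 was high in Neo/Neo (6.86) and -/- (7.47), which lack a wild-type allele, as in Neo/+ and +/-.

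Red cell and haem genes had more members on 1 side without overlap, and more at an unadjusted p under 0.05, than any other gene list in this comparison. By sign alone, 24 of 26 were higher, against 30 of 32 neuronal genes and 54.4% of all genes, and all 22 sterol genes, described further on, were lower. Of 26 measured genes, 23 were higher in all 4 embryos without a wild-type allele than in both Neo2/+ embryos, against 10.3% of all genes, and 2 were lower (6.68%). None passed the adjusted threshold with all 18 arrays. At an unadjusted p under 0.05, 18 of 26 were higher (2.92% of all genes) and 0 lower (1.19%), and the median difference was 0.54 against 0.011 over all genes. Without Neo2/+ replicate 2 the 18 became 6, and without Neo2/- replicate 2 they became 14. Without the 2 arrays that stand apart outside the 6 there were 20. The list was chosen with earlier results of these data known.

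The members span the programme of the red cell. Among its regulators, Gata1, the master transcription factor of the lineage, read 6.36 and 6.23 in Neo2/+, 7.14 and 6.81 in Neo2/Neo, and 6.81 and 7.26 in Neo2/-. Klf1, which activates beta-type globin genes, read 8.07 and 7.87, 8.88 and 8.87, and 8.68 and 9.06 in the same order. Epor, the erythropoietin receptor, read 7.13 and 7.06, 7.81 and 7.57, and 7.62 and 7.80. No Neo2/+ value reached the lowest of the others in these 3 genes, and the differences were 0.71 (SE 0.20), 0.91 (SE 0.29) and 0.60 (SE 0.19).

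Haem enzymes were also higher without a wild-type allele. Alad read 9.37 and 9.41 in Neo2/+, 10.31 and 10.26 in Neo2/Neo, and 10.24 and 10.33 in Neo2/-, a difference of 0.89 (SE 0.22), and a second, dimmer probe set gave 0.44. Alas2, the erythroid enzyme of the first step, differed by 0.98 (SE 0.31), Cpox by 0.41 (SE 0.14) and Fech, which inserts the iron, by 0.57 (SE 0.20). The dimmer probe sets gave 0.55 and 0.20 for Cpox, and 0.84, 0.76 and -0.15 for Fech. Of the membrane genes, Slc4a1 read 9.33 and 9.46, 10.76 and 10.81, and 10.27 and 10.52, a difference of 1.19 (SE 0.30), and its 2 other probe sets gave 0.88 and 0.95. Rhag differed by 1.04 (SE 0.37) and Ermap by 0.92 (SE 0.29).

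The embryonic globins lay near the top of the array's range and differed less. Hba-x read 13.85 and 13.79 in Neo2/+ and 14.04 to 14.21 in the others, Hbb-bh1 14.12 and 14.10 against 14.27 to 14.35, and Hbb-y 14.23 and 14.26 against 14.33 to 14.43. The differences were 0.32 (SE 0.12), 0.20 (SE 0.09) and 0.13 (SE 0.07). The 2 lower members were the adult alpha-globin probe sets of Hba-a1 (-0.14, SE 0.10) and Hba-a2 (-0.23, SE 0.13), which were dim at 3.72 to 5.90.

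The red cell genes lay above Neo2/+ with either partner. Against the shared Neo2/+ embryos the median difference of the 26 genes was 0.60 with the Neo partner and 0.47 with the null partner. In Neo2/- against Neo2/Neo it was -0.07, with 0 genes at an unadjusted p under 0.05 on the higher side (2.44% of all genes) or the lower (1.72%). By sign, 19 of 26 were lower with the null partner than with the Neo partner, 8 of them without overlap (16.6% of all genes), and 0 were higher without overlap (25.2%). The list score, the mean deviation of the genes from their means over 18 arrays, was -0.23 and -0.30 in Neo2/+, 0.36 and 0.27 in Neo2/Neo, and 0.10 and 0.30 in Neo2/-. It was 0.31 and 0.18 in WT. The Neo2/+ embryos, which keep 1 wild-type allele, thus lay below WT, and for 23 of 26 genes the WT mean was nearer to the embryos without a wild-type allele. Embryos with 2 Neo2 alleles scored -0.11 and -0.36.

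The lines without Neo2 showed a smaller difference at the same genes. There the median was 0.09, with 23 of 26 genes higher (46.2% of all genes) and 3 lower, and 0 of 26 reached an unadjusted p under 0.05. Both arrays that stand apart, +/- replicate 1 and -/- replicate 1, are among the 8 arrays of that comparison. The difference between the 2 sets of lines had a median of 0.39, with 5 of 26 genes higher at an unadjusted p under 0.05 (2.71% of all genes) and none past the adjusted threshold. Score values in the other lines ran from -0.43 in -/- replicate 2 to 0.37 in -/- replicate 1.

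**Figure D3:**
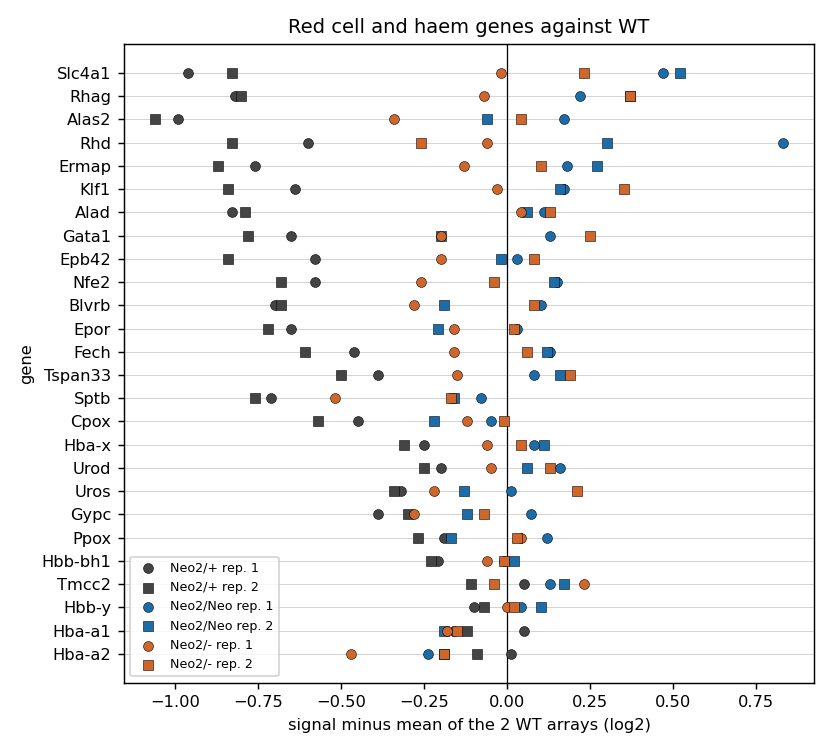
Signal of 26 red cell and haem genes (vertical axis) on each of the 6 arrays, minus the mean of the 2 WT arrays (log2, horizontal axis). Circles are replicate 1 and squares replicate 2. The Neo2/+ points (dark) lie left of the blue and orange ones for 23 genes, and for most of them left of WT at 0.

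Promoters of the red cell genes are shown because so many members shared 1 order of embryos. RefSeq sequences of assembly GRCm38.p6 were matched by symbol for 21 of the 26 genes, and the 250 bases before the start were searched on both strands for AGATAA, the letters bound by GATA factors, and for CCNCNCCC, the CACCC-type letters bound by Klf1. AGATAA occurred in 5 of 21 genes (23.8%) against 11.4% of 27025 genes, and CCNCNCCC in 47.6% against 48.5%. The pair of genes with both motifs at their printed promoters and a difference above 0.5, Alas2 and Epor, are given 5′ to 3′ with both motifs in capitals. Matches are counted with overlaps, and a match is a description of the letters.
Alas2 (chrX:150547167-150547416, forward strand): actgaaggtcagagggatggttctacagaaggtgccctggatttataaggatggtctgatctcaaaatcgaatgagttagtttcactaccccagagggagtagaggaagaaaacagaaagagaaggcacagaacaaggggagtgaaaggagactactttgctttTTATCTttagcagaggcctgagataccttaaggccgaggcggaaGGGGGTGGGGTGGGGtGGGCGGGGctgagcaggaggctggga
Epor (chr9:21963577-21963826, reverse strand): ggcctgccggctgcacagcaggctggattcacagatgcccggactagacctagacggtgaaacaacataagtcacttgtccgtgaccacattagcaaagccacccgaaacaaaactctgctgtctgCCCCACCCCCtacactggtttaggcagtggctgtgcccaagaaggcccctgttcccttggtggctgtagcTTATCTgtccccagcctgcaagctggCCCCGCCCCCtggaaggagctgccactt

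Each of these windows holds AGATAA, here read as TTATCT on the printed strand, and 4 overlapping or separate CCNCNCCC matches. Epb42, Rhd and Tmcc2 are the other 3 genes with AGATAA in the window. Gata1, Klf1 and Alad, in which both Neo2/+ embryos also lay below the other 4, have no AGATAA in theirs.

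Genes of sterol synthesis lay on the opposite side. This list was added after their values were seen, so its counts are descriptions. Of 22 measured genes, all 22 had a difference below 0, 15 were lower in all 4 embryos without a wild-type allele (6.68% of all genes) and 7 were lower at an unadjusted p under 0.05 (1.19%), with none past the adjusted threshold. The median difference was -0.30. For 20 of 22 genes (90.9%, against 53.3% of all genes) the WT mean was nearer to the embryos without a wild-type allele than to Neo2/+. The 7 became 1 without Neo2/- replicate 2 and 1 without Neo2/Neo replicate 1, 2 without either Neo2/+ embryo, and 13 without the 2 arrays that stand apart outside the 6.

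The pathway runs from acetyl-CoA through mevalonate and squalene to cholesterol, and its genes are switched together by the SREBP factors. Sc5d, a late desaturase, read 9.67 and 9.67 in Neo2/+, 8.95 and 9.29 in Neo2/Neo, and 9.48 and 8.93 in Neo2/-, a difference of -0.51 (SE 0.17), and its dimmer probe sets gave -0.27 and -0.04. Insig1, which holds SREBP back when sterols are plentiful, read 8.66 and 8.84, 8.26 and 8.30, and 8.55 and 8.32, a difference of -0.39 (SE 0.16). Msmo1, a sterol methyl oxidase, read 10.89 and 10.85, 10.28 and 10.37, and 10.71 and 10.18, a difference of -0.49 (SE 0.20). Neo2/- replicate 1 was the nearest to Neo2/+ in all 3 genes. Stard4, a sterol carrier, differed by -0.37 (SE 0.14) and Idi1, which isomerises the isoprenoid unit, by -0.37 (SE 0.15). The regulators themselves differed less: Srebf2 by -0.07 (SE 0.17), Scap by -0.04 (SE 0.15) and Srebf1 by -0.17 (SE 0.21).

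The lines without Neo2 went the other way at these genes. There the median difference of the 22 genes was 0.33, and 11 were higher at an unadjusted p under 0.05 (2.63% of all genes) with 0 lower (4.22%). Of the 22, 7 were higher without overlap (0.813% of all genes) and 1 lower (1.68%). Insig1 was 0.62 higher (SE 0.13), Idi1 0.55, Msmo1 0.61 and Stard4 0.41. The difference between the 2 sets of lines was -1.01 for Insig1, -0.92 for Idi1, -1.10 for Msmo1 and -0.79 for Stard4, with adjusted p-values from 0.750 to 0.877. At an unadjusted p under 0.05 this difference was lower for 14 of 22 genes, against 0.989% of all genes, and higher for 0. It was so for 18 of 22 without the 2 arrays that stand apart. By embryo, the list score was 0.28 and 0.25 in Neo2/+, -0.07 and -0.04 in Neo2/Neo, 0.18 and -0.16 in Neo2/-, and 0.12 and -0.13 in WT. In the other lines the 4 Neo/+ and +/- embryos lay between -0.29 and -0.20, Neo/Neo at -0.01 and -0.12, and -/- at -0.18 and 0.48. Without -/- replicate 2, the highest of these, the median in the lines without Neo2 was 0.14 in place of 0.33, and the difference between the sets of lines was lower for 11 of 22 genes at an unadjusted p under 0.05.

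**Figure D4:**
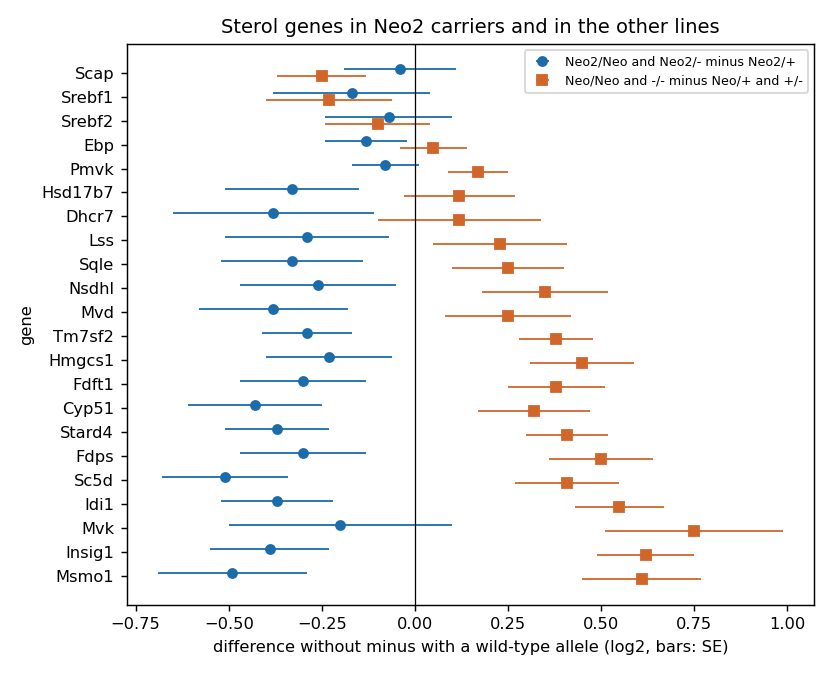
Difference without minus with a wild-type allele (log2, horizontal axis; bars are SE) for 22 sterol genes (vertical axis), in the Neo2 carriers (circles) and in the lines without Neo2 (squares). The circles have a median of -0.30 and the squares of 0.33.

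Promoters of sterol genes are shown because 15 of 22 members had both Neo2/+ embryos above the other 4. A RefSeq promoter was matched for 18 of the 22 genes, and its 250 bases before the start were searched on both strands for TCACNCCAC, the letters of a sterol regulatory element, and for CCAAT, the letters bound by the factor NF-Y, which acts beside SREBP. CCAAT occurred in 17 of 18 genes (94.4%) against 37.5% of 27025 genes. TCACNCCAC occurred in 1 of 18 (5.6%) against 1.2%. The 4 genes of smallest p with a promoter and Hmgcs1, the only one with TCACNCCAC, are printed 5′ to 3′ with both motifs in capitals.
Sc5d (chr9:42264301-42264550, reverse strand): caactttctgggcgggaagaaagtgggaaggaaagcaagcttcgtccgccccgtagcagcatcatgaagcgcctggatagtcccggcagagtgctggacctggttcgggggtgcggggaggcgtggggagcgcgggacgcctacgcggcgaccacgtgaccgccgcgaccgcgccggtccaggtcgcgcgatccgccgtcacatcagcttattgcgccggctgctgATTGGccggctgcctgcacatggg
Insig1 (chr5:28071162-28071411, forward strand): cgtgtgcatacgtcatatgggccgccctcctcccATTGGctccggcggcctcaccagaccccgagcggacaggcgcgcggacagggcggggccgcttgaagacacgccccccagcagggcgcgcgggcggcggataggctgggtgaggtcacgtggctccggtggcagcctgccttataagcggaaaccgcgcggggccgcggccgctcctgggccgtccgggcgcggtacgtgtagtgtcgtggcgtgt
Msmo1 (chr8:64733579-64733828, reverse strand): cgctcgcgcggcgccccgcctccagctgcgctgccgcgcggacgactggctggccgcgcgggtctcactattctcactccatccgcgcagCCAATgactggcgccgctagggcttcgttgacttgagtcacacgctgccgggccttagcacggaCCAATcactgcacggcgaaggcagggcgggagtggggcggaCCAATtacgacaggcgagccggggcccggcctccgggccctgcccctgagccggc
Idi1 (chr13:8885356-8885605, forward strand): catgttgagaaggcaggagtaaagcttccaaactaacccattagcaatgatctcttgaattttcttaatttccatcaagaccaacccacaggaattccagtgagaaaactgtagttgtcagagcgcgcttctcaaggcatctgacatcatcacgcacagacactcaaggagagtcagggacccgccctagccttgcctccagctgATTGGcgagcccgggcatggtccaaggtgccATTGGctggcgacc
Hmgcs1 (chr13:119690101-119690350, forward strand): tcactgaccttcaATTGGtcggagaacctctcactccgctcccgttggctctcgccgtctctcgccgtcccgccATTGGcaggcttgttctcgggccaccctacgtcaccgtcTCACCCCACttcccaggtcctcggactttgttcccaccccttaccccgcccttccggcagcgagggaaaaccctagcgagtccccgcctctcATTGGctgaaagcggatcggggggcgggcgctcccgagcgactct

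ATTGG in these lines is CCAAT read on the other strand. Hmgcs1 and Msmo1 hold 3 such matches each, Idi1 2, and Sc5d and Insig1 1 each. Hmgcs1 itself, the synthase at the entry to mevalonate, read 12.57 and 12.61 in Neo2/+, 12.36 and 12.42 in Neo2/Neo, and 12.55 and 12.13 in Neo2/-, a difference of -0.23 (SE 0.17).

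Neuronal genes set the Neo partner apart from the null partner. In Neo2/Neo against Neo2/+, all 32 measured neuronal genes had a difference above 0, 28 did not overlap (24% of all genes) and 12 were higher at an unadjusted p under 0.05 (3.94%), with a median of 0.63. In Neo2/- against the same Neo2/+ embryos the median was 0.11, 1 gene was higher without overlap (20.4%) and 0 reached an unadjusted p under 0.05 (1.76%). The direct comparison of Neo2/- with Neo2/Neo had 27 of 32 genes lower without overlap (16.6%), 5 lower at an unadjusted p under 0.05 (1.72%) and a median of -0.51. No neuronal gene passed the adjusted threshold in these comparisons with 18 arrays. The 12 became 23 without the 2 arrays that stand apart outside the 6, 3 and 6 without Neo2/Neo replicate 1 or 2, and 4 and 7 without Neo2/+ replicate 1 or 2.

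Lhx1, a homeobox factor of spinal and hindbrain interneurons, read 5.34 and 5.38 in Neo2/+, 7.53 and 7.22 in Neo2/Neo, and 6.27 and 5.44 in Neo2/-. Its difference from Neo2/+ was 2.01 (SE 0.38) with the Neo partner and 0.50 (SE 0.38) with the null partner. Chl1, an adhesion molecule of axons, read 4.06 and 4.18, 4.82 and 5.32, and 4.12 and 4.18, so that only the Neo2/Neo embryos were high. Its 3 dimmer probe sets, all at a mean below 3.5, gave 0.11, 0.07 and -0.10 with the Neo partner. Elavl3, an RNA-binding protein of neurons, read 8.28 and 8.51, 9.36 and 9.17, and 8.96 and 8.05. The last value shows the spread within Neo2/-: its 2 embryos had list scores of 0.49 and -0.09, against 0.03 and 0.18 in Neo2/+ and 0.74 and 0.79 in Neo2/Neo. Elavl4 read 8.11 and 8.39, 9.01 and 8.92, and 8.67 and 8.16. Without Neo2/- replicate 2, 24 of 32 neuronal genes lay above Neo2/+ in the 3 remaining embryos, against 16.2% of all genes, where 1 did with it. That array was left out with its values known, and the remaining embryos include both Neo2/Neo embryos, so this count is a description.

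The tailbud and Lin28 lists were lowest in Neo2/Neo among the 6 embryos. The tailbud and presomitic mesoderm list scored -0.02 and -0.12 in Neo2/+, -0.33 and -0.29 in Neo2/Neo, and -0.10 and 0.13 in Neo2/-. The Lin28 axis, RNA-binding proteins and targets of early developmental timing, scored 0.05 and 0.08, -0.17 and -0.18, and 0.03 and 0.01. In Neo2/Neo against Neo2/+, 2 of 22 tailbud genes and 3 of 14 Lin28 axis genes were lower at an unadjusted p under 0.05 (2.44% of all genes), with 0 higher (3.94%), and 13 of 22 tailbud genes (24.6%) and 8 of 14 Lin28 axis genes were lower without overlap. The labels give 1 stage, embryonic day 9.5, for all embryos, and no somite count is used here. The part of stage in the red cell, sterol and neuronal differences was not tested.

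**Figure D5:**
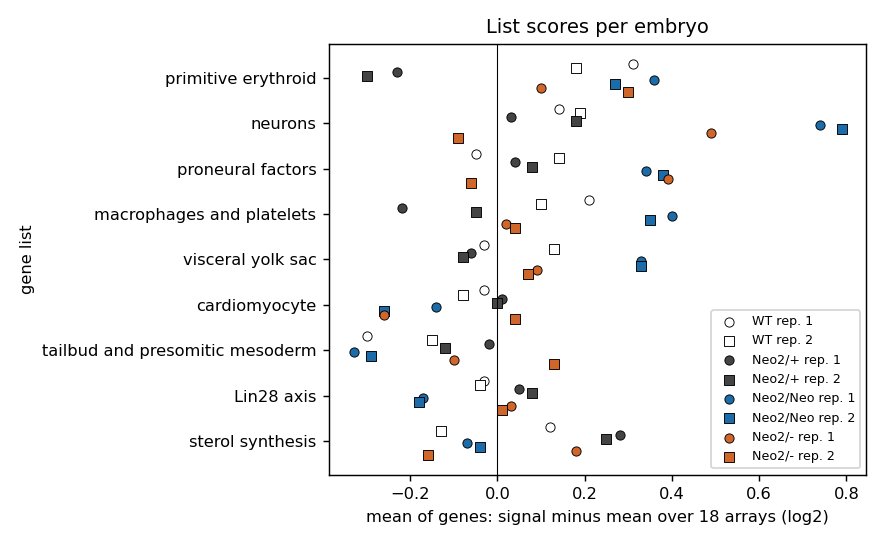
Score of 9 gene lists (vertical axis) in WT and the 6 Neo2 embryos, as the mean over a list's genes of the signal minus its mean over 18 arrays (log2, horizontal axis). Circles are replicate 1 and squares replicate 2. Neo2/+ (dark) is lowest for red cell genes at -0.30 and -0.23, and Neo2/Neo (blue) is highest for neurons at 0.74 and 0.79, where the 2 Neo2/- embryos (orange) are 0.49 and -0.09.

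Macrophage and yolk sac genes were read with each partner and then between the partners. Of 22 macrophage and platelet genes, 9 were higher than Neo2/+ at an unadjusted p under 0.05 with the Neo partner (3.94% of all genes) and 0 lower (2.44%), with a median of 0.46. With the null partner 1 was higher (1.76%) and 1 lower (0.715%), with a median of 0.17, against the same Neo2/+ embryos. In the direct comparison of Neo2/- with Neo2/Neo, 5 were lower (1.72%) and 1 higher (2.44%), with a median of -0.32. C1qb, a complement subunit made by macrophages, read 4.66 and 4.63 in Neo2/+, 6.58 and 6.30 in Neo2/Neo, and 5.06 and 4.68 in Neo2/-. Its dimmer probe sets gave 0.31 and 1.16 with the Neo partner. Csf2rb, the shared chain of cytokine receptors, followed the null partner: it read 6.10 and 6.70, 6.53 and 6.30, and 7.34 and 7.40. Of 24 genes of the visceral yolk sac, 7 were higher with the Neo partner at an unadjusted p under 0.05 (3.94% of all genes) and 1 lower (2.44%), and with the null partner 0 were higher (1.76%) and 0 lower (0.715%). Between the partners, 4 were lower in Neo2/- than in Neo2/Neo (1.72%) and 1 higher (2.44%).

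Afp, the fetal serum protein of yolk sac and liver, read 9.48 and 9.66 in Neo2/+, 11.34 and 11.40 in Neo2/Neo, and 10.38 and 10.20 in Neo2/-. Alb, the adult serum protein, read 6.39 and 6.37, 8.13 and 7.91, and 6.96 and 6.71. Both genes had Neo2/Neo highest and Neo2/- between. Absorptive yolk sac genes did not share that order, as Cubn differed from Neo2/+ by -0.07 and Lrp2 by -0.39 with the Neo partner. Over the list, scores were -0.06 and -0.08 in Neo2/+, 0.33 and 0.33 in Neo2/Neo, and 0.09 and 0.07 in Neo2/-. Placenta and decidua scores lay between -0.22 and -0.04 on all 6 arrays. The part of attached membranes in these values was not tested.

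Heart muscle genes were lower in most cases, without passing a threshold. Of 24 genes, 4 had a difference above 0 (54.4% of all genes) and 20 below it, 5 were lower without overlap (6.68%) and 1 higher (10.3%), and 0 reached an unadjusted p under 0.05 on the higher side (2.92%) or the lower (1.19%), with a median of -0.16. In the lines without Neo2 the median was 0.04, and 4 of 24 were higher at an unadjusted p under 0.05 (2.63%) with 0 lower (4.22%). Mybpc3, a sarcomere protein, read 8.46 and 8.43 in Neo2/+, 8.10 and 7.90 in Neo2/Neo, and 8.04 and 8.22 in Neo2/-, a difference of -0.38 (SE 0.25). Nkx2-5, a cardiac homeobox factor, read 6.69 and 6.58, 6.37 and 6.01, and 6.18 and 6.61. Without Neo2/- replicate 2, which read high for several of these genes, 14 of 24 were lower in the 3 remaining embryos, against 14.1% of all genes. That array was left out with its values known, so the larger count is a description. The remaining embryos include both Neo2/Neo embryos, which alone had 14 of 24 lower than Neo2/+ without overlap (24.6% of all genes).

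Genes of the tissues in which Tbx1 acts were counted at an unadjusted p under 0.05, beside the shares of all genes. No list here had more than 2 such members, too few to tell an excess from a shortage. Of 37 measured genes linked to Tbx1, 2 were higher (2.92% of all genes) and 0 lower (1.19%), and the median difference was 0.05. Second heart field genes had 1 of 21 higher and 0 lower with a median of 0.03, pharyngeal endoderm genes 0 of 19 in either direction with a median of -0.01, and branchiomeric muscle genes 0 of 14 with a median of 0.11. Otic vesicle genes had 1 of 17 higher and 0 lower, and neural crest genes 2 of 23 higher and 0 lower. Of 29 chromosomal neighbours of Tbx1, 0 were higher and 1 lower, with a median of -0.02.

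The signalling pathways around Tbx1 had counts near the shares of all genes at that level, 2.92% higher and 1.19% lower. At an unadjusted p under 0.05, FGF signalling had 0 of 23 genes in either direction, retinoic acid 0 of 18, hedgehog 0 of 17, Wnt 0 of 19, and BMP 1 of 25 higher. Their medians lay between -0.01 and 0.08. In simulated data of this design, 22.4% of changes of 0.5 were called, 83.6% of changes of 1 and 97.0% of changes of 2. Those data held 200 changed probe sets and noise that was independent between probe sets. In the real fit of all 18 arrays, differences of -2.16 (H3c4) and -1.71 (Slc1a5) were not called. The simulated shares therefore do not say which changes in these lists would have been called.

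Exchanging the Neo for the null partner changed no probe set past the threshold with all 18 arrays, with 881 higher (1.96%) and 923 lower (2.05%) at an unadjusted p under 0.05 (limma), and 6 lower ones (0.0133%) without the 2 arrays that stand apart. Higher with the null partner were En2, a homeobox factor of the midbrain and hindbrain border (7.68 and 7.57 in Neo2/+, 7.46 and 7.22 in Neo2/Neo, 7.87 and 8.02 in Neo2/-), and Arg1, an arginase (9.41 and 9.42, 8.79 and 8.72, 9.44 and 9.45). Ccdc160, Kbtbd8 and Gla were higher by 0.69, 0.51 and 0.67. The dimmer Kbtbd8 probe set gave 0.34, and the 2 of Gla gave 0.00 and -0.13. Lower with the null partner was Fibin, a homologue of a secreted fin bud factor (5.28 and 5.36, 6.50 and 6.71, 5.50 and 5.38), by -1.17 (SE 0.23). Chga, a granule protein of neuroendocrine cells, was at -0.64, Tlcd3b at -0.74, Dlx1as at -1.0 and Rab27a at -0.58. The 3 dimmer probe sets of Tlcd3b gave -0.32, -0.32 and -0.19, and those of Rab27a -0.14, 0.11 and -0.02. In Arg1 and Fibin the Neo2/- embryos read like Neo2/+, and the Neo2/Neo embryos stood alone.

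Against Neo2/+, the Neo partner had 1 probe set called (0.00222%), the dim Smo probe set, and the null partner had 0. At an unadjusted p under 0.05, limma gave 1538 higher (3.41%) and 1252 lower (2.78%) with the Neo partner, and 702 higher (1.56%) and 1169 lower (2.6%) with the null partner. Without +/- replicate 1 and -/- replicate 1 the counts were 92 (0.138% higher and 0.0666% lower) and 0. Among those 92 were Pttg1, the securin of cell division (11.40 in Neo2/+, 12.31 in Neo2/Neo, 11.44 in Neo2/-), and Prtg, a surface protein of early neural and mesodermal tissue (10.87, 9.56 and 10.58). Trim71, a timing gene of the let-7 pathway, had means of 8.98, 8.17 and 8.86, and Hoxb1, a hindbrain Hox gene, 7.36, 6.37 and 7.18. These 4 were chosen after their values were seen. With the null partner the genes of smallest p were Trim65 (0.51), Sfxn3 (0.56), Redrum (1.29), Capn11 (0.42) and Snhg6 (0.87) on the higher side, and Gm5082 (-0.40), Tmco6 (-0.60), Rbm11 (-0.48), Gm5914 (-0.45) and Ifi202b (-0.37) on the lower. The dimmer Tmco6 probe set gave 0.09. Redrum, a long noncoding RNA of red cells, read 4.44 and 4.68 in Neo2/+, 4.73 and 4.69 in Neo2/Neo, and 5.74 and 5.96 in Neo2/-. The difference between these counts for the 2 partners is not a test of a difference between Neo2/Neo and Neo2/-, which the direct comparison gives.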

How the data were processed

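RNA of 18 whole embryos was measured on Affymetrix mouse genome arrays, 1 embryo per array. The deposited values are log2 probe set signals. Per the submitters' processing notes the authors used RMA in affy, with versions not given in the sources used here. RMA equalises the distributions of all arrays, and without a detection call dim probe sets may hold background only. The number of arrays limits the precision.

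The values were used as deposited. A fit in limma 3.58.1 (R 4.3.3, lmFit and eBayes) with 9 genotype means over 18 arrays left 9 residual degrees of freedom, with 3.63 prior. The Neo2/Neo and Neo2/- means together were set against Neo2/+. All tests were two-sided, and p-values were adjusted by Benjamini-Hochberg over 45037 probe sets, with calls at 0.05. SE is limma's. A gene stands for its brightest probe set with a single symbol (34945 probe sets, 18193 genes). Of the others, 932 had several genes and 9160 none. Gene IDs of 34741 probe sets matched RefSeq of assembly GRCm38.p6.

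Named genes are Tbx1, the genes with an adjusted p under 0.05 or, where fewer than 6 passed in a direction, the 12 of smallest p, the 5 of smallest p in each further comparison, and up to 4 per gene list. Further names were chosen after values were seen. The members and the gene lists were chosen with earlier results of these data known, and the sterol and histone lists after these values were seen. Alternatives covered the arrays fitted, array weights, an intensity trend, dim probe sets, centring, sex, the replicate block and leaving out each array. The replicate numbers did not meet the rule for pairing. In simulated data with 45037 probe sets, 10 false calls accompanied 200 changed ones.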

Additional observations from a re-analysis of the deposited data

Results flagged for a closer look

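A few values had a wide gap to the other 3, relative to the range, among the 4 embryos without a wild-type allele. Palm2 read 5.72 in Neo2/Neo replicate 2, against 5.88 to 5.90 in the others. The list scores of neural crest in Neo2/- replicate 1 (0.04, with the other 3 at 0.05, so that the range itself is small), proneural factors in Neo2/- replicate 2 (-0.06, against 0.34 to 0.39) and p53 targets in Neo2/- replicate 2 (0.11, against 0.02 to 0.04) lay apart in the same way. Chance flags about 1 in 20 groups of this size.

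The flagged genes include 6 at which the Neo2 carriers and the lines without Neo2 differed in opposite directions. In each set of lines, every embryo without a wild-type allele lay on 1 side of every embryo with it. Without overlap, 10.3% of all genes were higher and 6.68% lower in the Neo2 carriers, and 0.813% and 1.68% in the other lines. The share of all genes with such opposite order was not counted, so these 6 show no excess. The difference between the sets of lines (log2) was 0.57 for Trim65, 0.50 for Actn3, -1.01 for Insig1, -0.79 for Stard4, -1.10 for Msmo1 and -1.61 for Ccdc25. None passed the threshold (limma, adjusted p from 0.579 to 0.877). Ccdc25 read 7.12 and 7.30 in Neo2/+, 6.29 and 6.34 in Neo2/Neo, and 6.65 and 5.95 in Neo2/-. Insig1, Stard4 and Msmo1 belong to sterol metabolism.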

How the results depend on the processing

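The Tbx1 difference stayed between -0.91 and -0.81 when any array was left out. Its adjusted p of 0.104 moved to 0.0342 with the 6 Neo2 arrays and 3 means, 0.008 without the 2 arrays that stand apart, 0.00233 with array weights and 0.0107 without either +/- array, with a difference of -0.86 in each. It was 0.0518 with 2 means, 0.0671 with centred arrays, 0.156 with an intensity trend and 0.135 with sex as a term. Leaving out 1 of the 6 arrays gave 0.178 to 0.866, with 0.706 and 0.866 without either Neo2/+ embryo, and leaving out 1 array other than +/- outside them 0.0857 to 0.246. With the replicate block it was 0.133, and the counts of calls were 1 for all 4 against Neo2/+ and 1 for the Neo partner, as without it. No named gene changed sign, and 18 of their 635 alternative values newly passed the threshold. Of 333 list medians, 50 moved by more than the spread between replicates.

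Calls without against with a wild-type allele were 49 with the 6 arrays and 3 means, 4 with 2 means, 15 without the 2 arrays that stand apart, 89 with array weights and 0 among probe sets with a mean of at least 6. Leaving out 1 array gave 0 to 4. For the Neo partner they were 146, 92, 493 and 0 in that order (no fit with 2 means), and 0 to 8. For the null partner array weights gave 4, and leaving out 1 array 0 to 1. For Neo2/- against Neo2/Neo they were 16 with 6 arrays and 6 without the 2 that stand apart, and 0 to 3. In the lines without Neo2 the 2 calls became 1 without the 2 arrays that stand apart, 1 with array weights and 0 at a mean of at least 6. There, leaving out 1 array gave 2 to 3416, with 3416 without +/- replicate 2 and 2813 without -/- replicate 2, where the lone remaining array is one that stands apart. Calls of the difference between lines ran from 0 to 1729 in the same way. A lone array left in a genotype is assumed to vary like the others.

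Counts of list members with an unadjusted p under 0.05, recomputed as alternatives chosen after seeing the data, moved as follows. Leaving out 1 of the 6 arrays, the 18 of 26 red cell genes became 6 to 17, the 7 of 22 sterol genes 1 to 9 and the 12 of 32 neuronal genes (Neo partner) 3 to 14. With the 6 arrays alone there were 13 sterol, 23 neuronal and, in place of 7 of 24, 12 yolk sac genes (Neo partner), and without the 2 arrays that stand apart 13 sterol and 23 neuronal genes.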
